A study of Mus musculus with 32 samples.

Results

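Pdf, Rfwd3, Sulf2 and Ppbp are 4 of the 21113 genes measured in the livers of male mouse offspring, and they were picked because the mean of HF/HF mice lay on the same side of the mean of LF/HF mice at 12 and at 28 weeks of age. The diet differences at the 2 ages therefore chose these genes, and they are given below as a description, with no test. The genes were selected on the group means of log2 intensity of all 32 arrays. The study asked whether the diet of the parents alters gene expression in the liver of the offspring. Both parents received an HF diet (45% of energy from fat, 20% from protein and 35% from carbohydrate) or an LF diet, a standard chow (9% from fat, 33% from protein and 58% from carbohydrate), starting 6 weeks before mating and lasting through gestation and lactation. All offspring, male and of strain C57Bl/6 from C57Bl/6J parents, were weaned onto the HF diet, so that HF/HF and LF/HF mice differ in the diet of the parents and not in their own. RNA of whole liver was hybridized to whole transcript microarrays, 1 array per mouse, for 7 HF/HF and 7 LF/HF mice of 12 weeks and 9 HF/HF and 9 LF/HF mice of 28 weeks.

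The 4 genes belong to unrelated processes. Pdf encodes the mitochondrial peptide deformylase, which takes the formyl group off the first methionine of proteins made inside the mitochondrion. Rfwd3 encodes a ubiquitin ligase that acts on the single-strand binding protein RPA at stalled replication forks and takes part in the repair of DNA crosslinks, the Fanconi anemia pathway. Sulf2 encodes an extracellular enzyme that removes sulfate groups from heparan sulfate, the sugar chain through which the liver binds remnant lipoproteins and many growth factors. Ppbp encodes pro-platelet basic protein, a CXC chemokine of platelet granules that draws neutrophils once it is trimmed to its active form.

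The sequence just upstream of the annotated start is shown for each gene as background. Each gene shifted alike at the 2 ages, but the 4 genes did not shift alike with each other. Pdf and Ppbp were lower and Rfwd3 and Sulf2 higher in HF/HF mice. The sequences are from RefSeq on GRCm38.p6, read 5′ to 3′ on the strand of the gene and ending at the last base before the start. Capitals mark matches to the motifs searched on both strands, a match on the other strand being printed as its reverse complement.
Pdf: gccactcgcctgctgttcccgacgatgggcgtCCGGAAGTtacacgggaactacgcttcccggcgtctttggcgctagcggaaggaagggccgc
Rfwd3: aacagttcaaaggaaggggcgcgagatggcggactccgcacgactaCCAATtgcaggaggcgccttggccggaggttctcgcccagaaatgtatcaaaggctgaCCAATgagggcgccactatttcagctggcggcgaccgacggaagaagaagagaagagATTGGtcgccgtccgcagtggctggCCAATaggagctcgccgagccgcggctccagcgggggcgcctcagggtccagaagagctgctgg
Sulf2: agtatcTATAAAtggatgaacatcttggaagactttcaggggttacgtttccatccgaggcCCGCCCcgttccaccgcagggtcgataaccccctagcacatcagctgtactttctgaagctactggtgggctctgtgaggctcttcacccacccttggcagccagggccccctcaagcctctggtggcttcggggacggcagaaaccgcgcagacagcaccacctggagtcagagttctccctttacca
Ppbp: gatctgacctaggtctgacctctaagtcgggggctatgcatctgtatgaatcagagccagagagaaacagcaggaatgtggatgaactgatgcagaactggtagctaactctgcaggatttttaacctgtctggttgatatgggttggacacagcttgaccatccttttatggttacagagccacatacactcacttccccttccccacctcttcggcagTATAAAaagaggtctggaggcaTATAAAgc
The 94 bases of Pdf (chr8:107048615-107048708, minus strand) reach up to the end of the neighbouring gene Cog8, which lies on the same strand, and the other windows hold 250 bases: Rfwd3 at chr8:111300223-111300472 (minus strand), Sulf2 at chr2:166155684-166155933 (minus strand, 1 of 2 RefSeq windows of the gene) and Ppbp at chr5:90768268-90768517 (plus strand). Pdf held 1 ETS site (CCGGAAGT), beginning 62 bases before the start, a motif found in the nearest 94 bases of 2.09% of 27025 promoters. Rfwd3 held 4 CCAAT boxes (CCAAT), beginning 204, 146, 89 and 64 bases before the start, and 34.5% of promoters held at least 1 within 250 bases. Ppbp held 2 TATA boxes (TATAAA), 30 and 8 bases before the start, and Sulf2 held 1 at 244 bases, against 13% of all promoters with this motif. Sulf2 also held 1 GC box (GGGCGG) at 189 bases, a motif of 32.9% of promoters. None of the 4 windows held the letters of the sterol element (TCACNCCAC, 1.04% of promoters) or the antioxidant element (TGACNNNGC, 10.1%). The E box (CACGTG, 6.05%) and the GATA site (AGATAA, 10.3%) were also absent from all 4. These shares are over windows of 250 bases and do not apply to the 94 bases of Pdf. No motif searched was found in more than 2 of the 4 windows. G and C made up 66.0% of the Pdf window, 62.4% of that of Rfwd3, 57.2% of that of Sulf2 and 47.2% of that of Ppbp.

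Values are the log2 of the normalized intensity, on which 1 unit is a doubling. On an array this level depends on the probes of each gene, so that it is set only between mice and not between genes. Over all 32 mice Pdf averaged 6.83 on this scale, Sulf2 5.91, Rfwd3 4.46 and Ppbp 2.58. As a rough guide to signal strength, the median over all genes was 3.1. Ppbp lay below that median, at percentile 43.1, so that its differences rest on a weak signal. Livers of all groups carried hepatocyte markers (the mean of 14 such genes lay between 11.9 and 12.1 in every mouse). Skeletal muscle markers, which a liver should lack, stood apart in 3 mice, with list means of 8.91 in replicate 1 of LF/HF at 12 weeks, 6.34 in replicate 8 of LF/HF at 28 weeks and 4.34 in replicate 3 of HF/HF at 12 weeks, against a median of 2.6 over all mice. Array names came in 2 series, G262 and G263, with 3 to 5 mice of each group in each series. Nothing in the sources used here says what the series are, and they are treated below as a possible batch.

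Pdf was lower in HF/HF mice than in LF/HF mice at both ages. At 12 weeks its log2 intensity was 6.23 at the lowest, 6.57 at the median and 7.10 at the highest in HF/HF mice, against 6.68, 6.97 and 7.18 in LF/HF mice. At 28 weeks these were 6.46, 6.72 and 6.83 in HF/HF mice, against 6.81, 7.07 and 7.41 in LF/HF mice. At 28 weeks 7 of 9 HF/HF mice lay below every LF/HF mouse, and all 9 lay below the LF/HF mean, while at 12 weeks 4 of 7 HF/HF mice lay below every LF/HF mouse and the other 3 lay inside the LF/HF range. The difference was −0.33 (SE 0.11, 0.797-fold) at 12 weeks and −0.42 (SE 0.10, 0.75-fold) at 28 weeks. From the lowest to the highest group mean, the order was HF/HF at 12 weeks (6.60), HF/HF at 28 weeks (6.67), LF/HF at 12 weeks (6.93) and LF/HF at 28 weeks (7.08). The means of the 2 ages differed by less than the SD of the wider group within each diet, which was 0.326 among HF/HF mice of 12 weeks and 0.194 among LF/HF mice of 28 weeks.

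Rfwd3 was higher in HF/HF mice than in LF/HF mice at both ages, with the largest differences of the 4 genes. At 12 weeks its log2 intensity was 3.53 at the lowest, 4.79 at the median and 5.80 at the highest in HF/HF mice, against 3.53, 4.18 and 4.65 in LF/HF mice. At 28 weeks it was 4.47, 4.71 and 5.27 in HF/HF mice, against 3.25, 4.20 and 4.84 in LF/HF mice. Every HF/HF mouse of 28 weeks lay above the LF/HF mean, but only 3 of 9 lay above every LF/HF mouse, since a few LF/HF mice were as high as the HF/HF mice. The difference was 0.75 (SE 0.26, 1.68-fold) at 12 weeks and 0.70 (SE 0.23, 1.63-fold) at 28 weeks. Group means fell into 2 levels by the diet of the parents, 4.83 and 4.82 in HF/HF mice of 12 and 28 weeks against 4.08 and 4.12 in LF/HF mice of 12 and 28 weeks. Mice of 1 group varied more in Rfwd3 than in most genes of a similar level, with a within-group SD of 0.512 against a median of 0.262, at the percentile 94.2.

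Sulf2 was also higher in HF/HF mice. At 12 weeks its log2 intensity was 5.42 at the lowest, 6.15 at the median and 6.65 at the highest in HF/HF mice, against 5.34, 5.60 and 6.07 in LF/HF mice. At 28 weeks it was 5.72, 6.10 and 6.59 in HF/HF mice, against 5.28, 5.74 and 6.35 in LF/HF mice. The groups overlapped widely at 28 weeks, where 6 of 9 HF/HF mice lay inside the LF/HF range, and less so at 12 weeks, where 2 of 7 did. The difference was 0.42 (SE 0.17, 1.34-fold) at 12 weeks and 0.35 (SE 0.15, 1.27-fold) at 28 weeks. The group means were 6.13 in HF/HF mice of 28 weeks and 6.07 in those of 12 weeks, against 5.79 in LF/HF mice of 28 weeks and 5.64 in those of 12 weeks, and each step in this order was smaller than the SD within the groups on either side of it. The within-group SD of 0.335 was at the percentile 90.2 of genes of a similar level.

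Ppbp was lower in HF/HF mice at both ages. At 12 weeks its log2 intensity was 2.06 at the lowest, 2.33 at the median and 2.61 at the highest in HF/HF mice, against 2.12, 2.68 and 3.55 in LF/HF mice. At 28 weeks it was 2.06, 2.50 and 2.78 in HF/HF mice, against 2.49, 2.71 and 3.18 in LF/HF mice. All 7 HF/HF mice of 12 weeks and all 9 of 28 weeks lay below the mean of the LF/HF mice of their age, although 6 and 5 of them lay inside the LF/HF range. The difference was −0.37 (SE 0.16, 0.775-fold) at 12 weeks and −0.35 (SE 0.14, 0.787-fold) at 28 weeks. The group means were 2.34 in HF/HF mice of 12 weeks and 2.45 in those of 28 weeks, against 2.70 in LF/HF mice of 12 weeks and 2.80 in those of 28 weeks, and the step of HF/HF at 28 weeks below LF/HF at 12 weeks was smaller than the SD of that LF/HF group. The LF/HF mice of 12 weeks held the widest spread of the 4 groups, with an SD of 0.51.

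**Figure D1:**
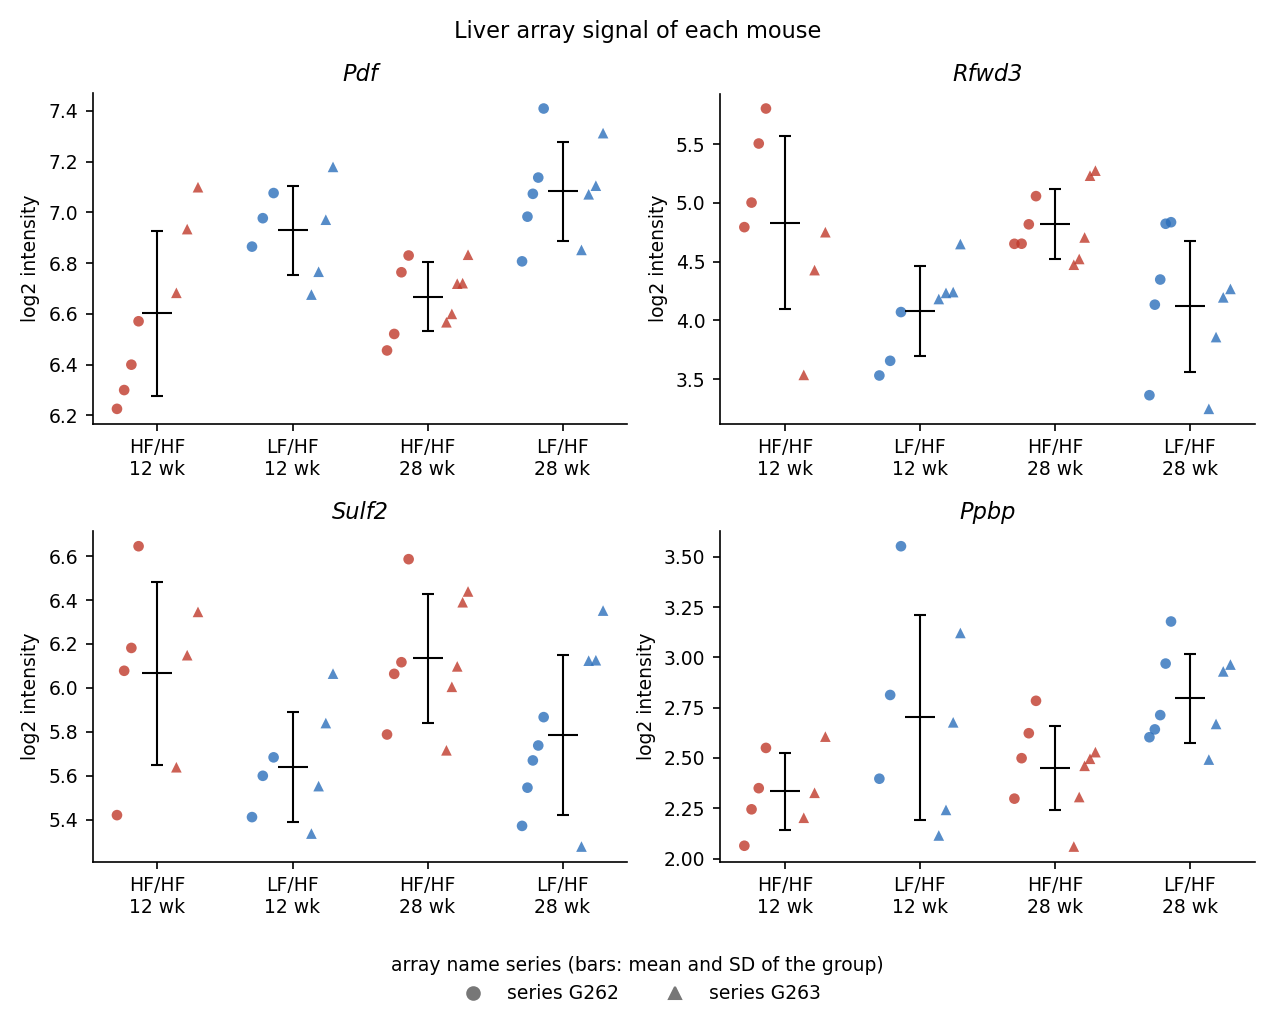
Log2 intensity (y axis) of Pdf, Rfwd3, Sulf2 and Ppbp in each of 32 mice by parental diet and age (x axis), with red points for HF/HF and blue for LF/HF, circles for array name series G262 and triangles for G263, and bars for the mean and SD of each group. Pdf and Ppbp means are lower and Rfwd3 and Sulf2 means higher in HF/HF mice at both ages, with overlap between the diets in every panel.

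A difference of the same sign at both ages is common, since 10517 of the 21113 genes (49.8%) had one, and the 4 genes were chosen for it. The criterion of the study was an unadjusted P under 0.05 with a fold change over 1.2, and the 4 genes met it at both ages, on the same differences that chose them, so that nothing is read from it. At 12 weeks 1.45% of all genes met it as higher and 1.47% as lower in HF/HF mice, and at 28 weeks 0.961% and 1.19% did. Both ages together gave 18 genes in 1 direction (0.0853% of all genes, 10 or 0.0474% higher and 8 or 0.0379% lower in HF/HF mice) and 8 genes in opposite directions (0.0379%). No gene passed an adjusted p under 0.05 in limma for the diet at either age, where 617 genes (2.92%) met the criterion at 12 weeks and 454 (2.15%) at 28 weeks, and 998 and 1083 genes were under the unadjusted P of 0.05 alone. There is no threshold in the choice of the 4 genes from these 18. Ranked by the smaller of the 2 absolute differences, Rfwd3 stood first at 0.70, Sulf2 stood at rank 9 (0.35), Ppbp at rank 10 (0.35) and Pdf at rank 11 (0.33).

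Other leading genes of the 18 are given here with what they encode, and no grouping of them was tested. Higher in HF/HF mice were Acmsd, an enzyme of tryptophan breakdown (0.64 with SE 0.28 at 12 weeks and 0.56 with SE 0.25 at 28 weeks), Chrm3, a muscarinic receptor (0.39 and 0.40), and Adamts2, which trims procollagen (0.37 and 0.38). Lower were Cd163, the hemoglobin scavenger receptor of macrophages (−0.64 and −0.45), and Tgm1, a transglutaminase (−0.44 and −0.37). The genes next after Pdf were Plxna2, a semaphorin receptor (0.40 and 0.32), and Cchcr1 (0.39 and 0.31).

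**Figure D2:**
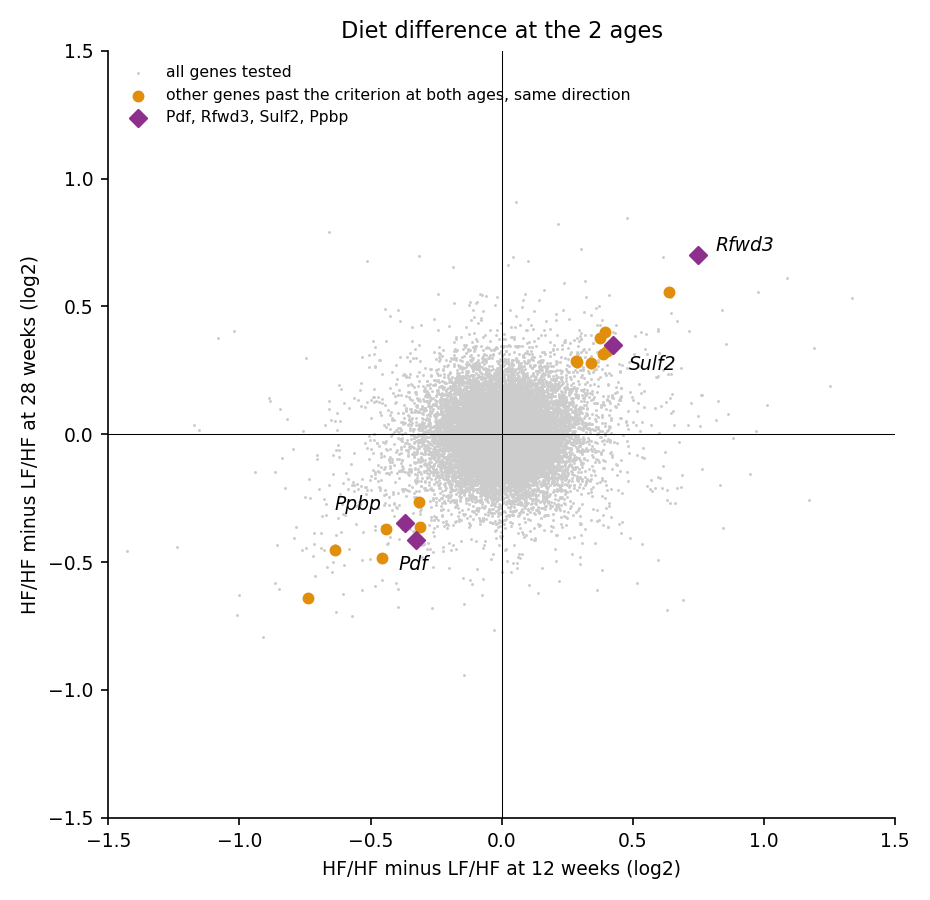
Log2 difference between HF/HF and LF/HF means of each gene at 12 weeks (x axis) and at 28 weeks (y axis), with all 21113 genes in grey, 14 other genes past the criterion at both ages in 1 direction in orange and the 4 genes in purple. Rfwd3 lies farthest out on the upper right at 0.75 and 0.70, while Pdf, Ppbp and Sulf2 lie among the orange points.

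Set apart by array name series, Sulf2 and Ppbp kept their direction in both series at both ages, and Pdf and Rfwd3 did not at 12 weeks. In series G262, Rfwd3 at 12 weeks was 4.79 to 5.80 in 4 HF/HF mice, against 3.53 to 4.07 in 3 LF/HF mice, a difference of 1.52. In series G263 it was 3.53 to 4.75 in 3 HF/HF mice, against 4.18 to 4.65 in 4 LF/HF mice, a difference of −0.09. The groups were fully apart in the first series. In the second their ranges overlapped, and the small difference of the other sign is not read as a reversal. Pdf behaved likewise at 12 weeks, with 6.23 to 6.57 in 4 HF/HF mice against 6.87 to 7.08 in 3 LF/HF mice of series G262 (difference −0.60), and 6.68 to 7.10 in 3 HF/HF mice against 6.68 to 7.18 in 4 LF/HF mice of series G263 (difference 0.01). At 28 weeks both series gave the same direction, with Pdf at −0.44 in G262 and −0.40 in G263 and Rfwd3 at 0.49 and 0.95. For Sulf2 the differences were 0.52 in G262 and 0.35 in G263 at 12 weeks, and 0.50 and 0.16 at 28 weeks. For Ppbp they were −0.62 and −0.16 at 12 weeks, and −0.27 and −0.39 at 28 weeks.

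The gap between the series was noticed in the same differences that chose the genes, and it is given as a description, with no test of the 4 genes. The diet difference of series G262 less that of series G263 at 12 weeks was 1.61 (SE 0.44) for Rfwd3, −0.61 (SE 0.20) for Pdf, 0.17 (SE 0.35) for Sulf2 and −0.46 (SE 0.32) for Ppbp. In a limma fit of this gap over all genes, on the 8 cells of diet, age and series, 0 genes passed the adjusted p at 12 or at 28 weeks, and 780 (3.69%) and 1083 (5.13%) were under an unadjusted p of 0.05. With the series as a block the pooled differences stayed close to the values above, at −0.31 and −0.43 for Pdf, 0.72 and 0.73 for Rfwd3, 0.44 and 0.34 for Sulf2, and −0.39 and −0.33 for Ppbp at 12 and 28 weeks. Of the 18 genes, 15 kept their sign in both series at 12 weeks and all 18 did at 28 weeks. The 18 genes met the criterion on the mice of both series together. Keeping the sign therefore follows in part from that choice, and nothing is read from these counts. The exception beside Pdf and Rfwd3 was Gstm1, a glutathione transferase, at 0.59 in G262 and −0.07 in G263.

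**Figure D3:**
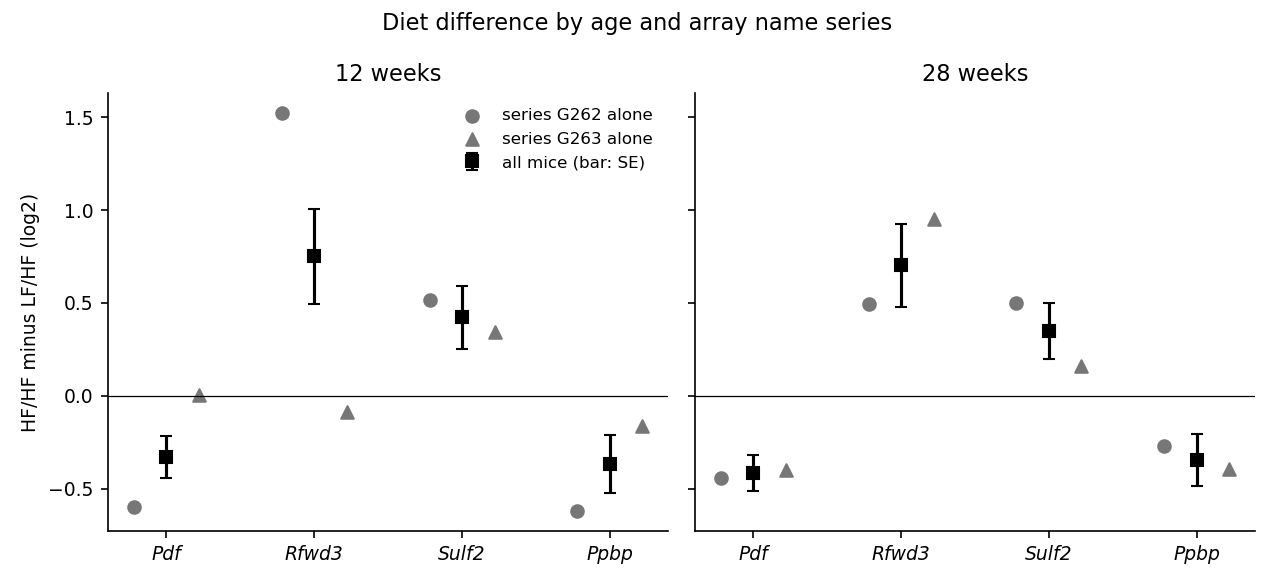
Difference between HF/HF and LF/HF means (log2, y axis) of each gene (x axis) at 12 weeks (left) and 28 weeks (right), with black squares for all mice and bars for the SE, grey circles for series G262 alone and grey triangles for series G263 alone. At 12 weeks the triangles of Pdf (0.01) and Rfwd3 (−0.09) lie at or past the zero line, on the other side from the circles.

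Age, averaged over the diets, is a comparison that the choice of the genes did not use. None of the 4 genes passed it: the change at 28 weeks against 12 weeks was 0.11 for Pdf (SE 0.07, adjusted p = 0.561 in limma), 0.01 for Rfwd3 (SE 0.17, adjusted p = 0.984), 0.11 for Sulf2 (SE 0.11, adjusted p = 0.759) and 0.10 for Ppbp (SE 0.10, adjusted p = 0.737). The 95% intervals of the change ran over −0.04 to 0.26 for Pdf, −0.33 to 0.36 for Rfwd3, −0.12 to 0.34 for Sulf2 and −0.11 to 0.32 for Ppbp. Over all genes 379 (1.8%) passed the adjusted p, 173 of them (0.819%) higher and 206 (0.976%) lower at 28 weeks than at 12. Within HF/HF mice alone the age difference was 0.07 for Pdf and for Sulf2, −0.01 for Rfwd3 and 0.12 for Ppbp, against 0.15 for Pdf, 0.14 for Sulf2, 0.04 for Rfwd3 and 0.09 for Ppbp within LF/HF mice.

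Pathway partners of the 4 genes met the criterion about as often as other genes, and none passed after adjustment for the diet. Of 137 such genes, 5 (3.65%) met it at 12 weeks and 3 (2.19%) at 28 weeks, against 2.92% and 2.15% of all genes. Of 22 genes of mitochondrial protein start and processing, measured beside Pdf, 0 met the criterion at either age. The median difference of these genes was −0.03 at 12 weeks and −0.02 at 28 weeks, against 0.00 at each age over all genes, and Mtfmt, which adds the formyl group that Pdf removes, was at 0.04 (SE 0.11) and −0.07 (SE 0.10). Of 31 genes of RPA binding, the Fanconi pathway and replication stress, measured beside Rfwd3, 1 was higher at 12 weeks and 0 at 28 weeks. That gene was Chek1, the checkpoint kinase (0.27, SE 0.09). The subunits of RPA, the substrate of Rfwd3, did not meet the criterion, with Rpa2 at 0.18 (SE 0.15) and 0.10 (SE 0.13).

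For Sulf2, the 31 genes of heparan sulfate synthesis and editing held 1 lower gene at 12 weeks, Extl3, which starts the chain (−0.34, SE 0.16), and 1 lower gene at 28 weeks, Hs3st3a1, a sulfotransferase (−0.35, SE 0.16). Among 13 core proteins that carry the chains, Gpc6, a glypican, was higher at 28 weeks (0.60, SE 0.20). Sdc1, the syndecan through which hepatocytes take up remnants, was at 0.25 (SE 0.11) at 12 weeks, under the fold limit, and at 0.11 (SE 0.10) at 28 weeks. Among 18 genes of remnant uptake, Apoc2, the activator of lipoprotein lipase, was higher (0.31, SE 0.15) and Angptl4, an inhibitor of that lipase, lower (−0.44, SE 0.15) at 12 weeks, and Scarb1, the receptor of high-density lipoprotein, was higher at 28 weeks (0.29, SE 0.10). With age, Gpc1, a glypican, passed the limma adjusted p as higher at 28 weeks (0.67, SE 0.15, adjusted p = 0.0107), and B3gat3, which builds the linker of the chain, as lower (−0.24, SE 0.06, adjusted p = 0.0376).

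For Ppbp, the 22 other CXC chemokines and receptors held 1 lower gene at 12 weeks, Cxcl13, a B cell attractant (−0.84, SE 0.30), and 0 at 28 weeks. Of 17 platelet and megakaryocyte markers measured, 0 met the criterion at 12 weeks (2.92% of all genes did) and 1 at 28 weeks (2.15% of all genes), Gp1bb, a subunit of the platelet receptor for von Willebrand factor (−0.29, SE 0.12). Their median difference was −0.07 at 12 weeks, with 2 of 17 genes higher in HF/HF mice, and −0.03 at 28 weeks, with 6 of 17 higher. The list mean per mouse was 2.28 to 2.50 in HF/HF mice against 2.38 to 2.62 in LF/HF mice of 12 weeks, and 2.30 to 2.56 in HF/HF mice against 2.34 to 2.54 in LF/HF mice of 28 weeks. Of the defining markers, Pf4, platelet factor 4, averaged 2.04 over the 32 mice and Itga2b, an integrin of platelets, 3.04. In whole liver, fewer cells of a type and less RNA per cell cannot be told apart. Ppbp showed little relation to the platelet list among mice of 1 group (r = −0.04, permutation p over 32 mice adjusted to 0.884), and the part of platelets in its diet difference was not tested further. The median level of the platelet list was 2.33, against 3.1 over all genes. Both Ppbp and the list thus had a weak signal, which limits what this r can show.

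Of 16 neighbours of the 4 genes on the chromosome, 2 on each side of each gene, 0 met the criterion at 12 weeks (2.92% of all genes did) and 1 at 28 weeks (2.15% of all genes), a count too small to set against that share. That gene was Zmynd8 near Sulf2, a chromatin reader (0.28, SE 0.12). Pdf lies at chr8:107046289-107048614 and Rfwd3 on the same chromosome at chr8:111270944-111300222. Of the 47 measured genes in the 4222329 bases between them, 1 met the criterion at 12 weeks and 0 at 28 weeks, against the same shares of all genes. Cog8, a subunit of a Golgi tethering complex whose gene lies 95 bases from Pdf, was at −0.13 (SE 0.10) and 0.03 (SE 0.09), and Vps4a on the other side was at 0.09 (SE 0.09) and 0.06 (SE 0.08). Ppbp lies at chr5:90768518-90770063 in a row of CXC chemokines, where its nearest neighbours Pf4 (−0.21 with SE 0.14, and 0.08 with SE 0.12) and Cxcl5 (0.10 with SE 0.09, and −0.06 with SE 0.08) did not meet the criterion at either age. Sulf2 lies at chr2:166073899-166155683, and Ncoa3, a nuclear receptor coactivator that lies 657 bases from it, was at −0.11 (SE 0.13) and −0.01 (SE 0.11). Prex1, on its other side, was higher at 28 weeks of age than at 12 (0.34, SE 0.08, limma adjusted p = 0.022).

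Among mice of the same group no pair of the 4 genes passed a test of varying together. Each mouse was taken as its deviation from the mean of its group, which leaves out the differences that chose the genes. Over the 6 pairs r lay between −0.25 (Pdf and Rfwd3) and 0.14 (Rfwd3 and Sulf2), with adjusted permutation p = 0.905 for every pair and 0 of 6 under an unadjusted p of 0.05. For Pdf and Rfwd3 the permutation p was 0.285 for r and 0.126 for a rho of −0.30, r was −0.29 without the 2 farthest mice, and within the series r was 0.11 in G262 and 0.15 in G263. Centred within each group and series, an alternative added after the series had been seen, the r of this pair was 0.13.

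Against the 12 lists of cell type and state markers, 0 of 48 relations passed an adjusted permutation p under 0.05 and 5 were under an unadjusted p of 0.05. The strongest was that of Sulf2 with markers of dividing cells, 14 genes such as Mki67 and Top2a (r = 0.53, permutation p = 0.00142, adjusted 0.0682; rho = 0.44, permutation p = 0.0103, adjusted 0.408; 32 mice). It was r = 0.39 without the 2 mice farthest in the list, 0.69 within series G262 and 0.84 within G263, and 0.56 with all mice centred within group and series (permutation p = 0.00646, adjusted 0.103). After cyclic loess normalization between arrays r was 0.59 and the adjusted permutation p was 0.00528, while rho was 0.51 with an adjusted permutation p of 0.114. Without the 2 mice of most muscle markers r was 0.53 (adjusted permutation p = 0.227) and rho 0.40 (adjusted permutation p = 0.379). Of the single genes of the list, Top2a (r = 0.51), Mcm6 (0.51) and Mcm2 (0.50) were the highest and Birc5 (0.02) the lowest. The list was itself higher in HF/HF mice of 12 weeks in 14 of 14 genes, 3 of which met the criterion (1.45% of all genes met it as higher), and in 13 of 14 at 28 weeks with 0 past it (0.961% of all genes).

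The HF/HF mice that led in these markers also led in Sulf2. Replicate 3 of HF/HF at 12 weeks had a list mean of 4.02, against 2.46 to 2.77 in the other HF/HF mice and 2.34 to 2.59 in LF/HF mice of that age, and it had the highest Sulf2 of the 32 mice (6.65). Replicate 3 of HF/HF at 28 weeks had 3.25, against 2.47 to 2.72 in the other HF/HF mice and 2.39 to 2.67 in LF/HF mice, and the highest Sulf2 of its age (6.59). Without these mice the Sulf2 difference was 0.33 (SE 0.16) at 12 weeks and 0.29 (SE 0.14) at 28 weeks, of the same sign as before but no longer past the criterion at either age. Without them 8 genes, in place of 18, met the criterion at both ages in 1 direction. Replicate 3 of HF/HF at 12 weeks also had the highest Rfwd3 of the 32 mice (5.80). Without the same mice Rfwd3 was at 0.59 at 12 weeks and 0.72 at 28 weeks. Pdf was then at −0.28 and −0.44, and Ppbp at −0.37 and −0.33, and these 3 genes still met the criterion. The part of dividing cells in the difference of Sulf2 or of the other genes was not tested further.

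**Figure D4:**
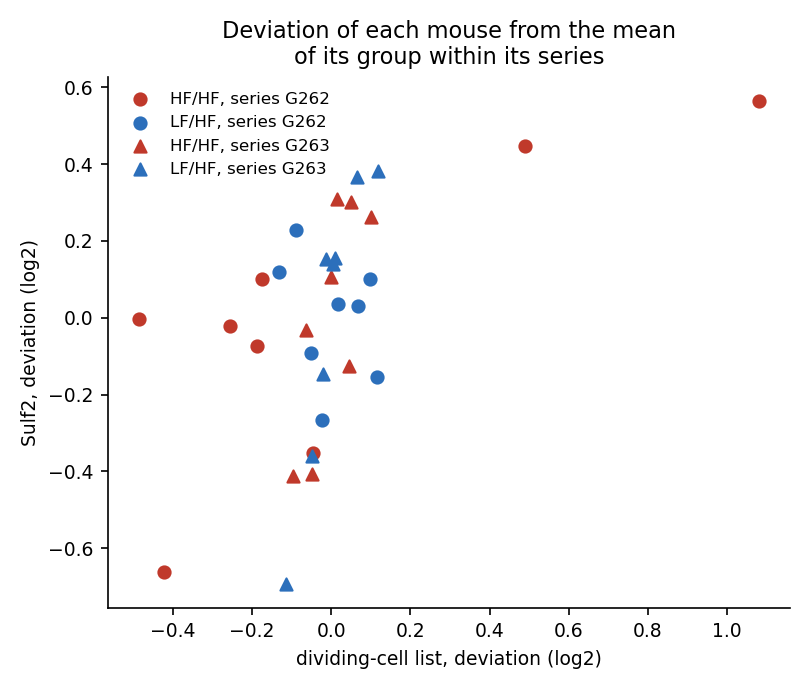
Deviation of Sulf2 (y axis) against deviation of the mean of 14 dividing-cell markers (x axis), both log2, each mouse relative to the mean of its group within its array name series, in red for HF/HF and blue for LF/HF, with circles for G262 and triangles for G263. The 2 HF/HF mice farthest right lie high on the y axis, and r over the 32 mice is 0.56.

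Ppbp had its highest value, 3.55, in the LF/HF mouse of 12 weeks that carried the most skeletal muscle RNA (list mean 8.91). Without that mouse the Ppbp difference at 12 weeks was −0.23 (SE 0.14) in place of −0.37 and did not meet the criterion. The relation of Ppbp to the muscle list rested on such mice, with r = 0.51 (permutation p = 0.0527, adjusted 0.355) and rho = 0.17 (permutation p = 0.333, adjusted 0.593) over 32 mice and r = 0.07 without the 2 farthest. Leaving out replicate 2 of HF/HF (−0.32) or replicate 7 of LF/HF (−0.30) at 12 weeks also took Ppbp below the criterion, while at 28 weeks no single mouse did. Without the 2 mice of most muscle markers the differences of the other genes at 12 weeks were −0.34 for Pdf, 0.75 for Rfwd3 and 0.42 for Sulf2. All of these met the criterion. Without the 3 mice with muscle markers they were −0.29 for Pdf, 0.59 for Rfwd3 and 0.32 for Sulf2, the last no longer past the criterion. The third mouse, replicate 3 of HF/HF at 12 weeks, is also the one that led in dividing-cell markers (4.02). The part of muscle RNA in these differences was not tested further.

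Pdf was most closely related to erythroid markers (r = 0.47, permutation p = 0.0264, adjusted 0.355; rho = 0.42, permutation p = 0.0329, adjusted 0.416; r = 0.40 without the 2 farthest of 32 mice), a list of which 9 of 14 genes were measured. Centred within group and series this r was 0.18, and within the series it was 0.33 in G262 and −0.01 in G263. Centred in that way Pdf was most closely related to platelet markers (r = −0.47, permutation p = 0.00453, adjusted 0.103; rho = −0.49, permutation p = 0.00885, adjusted 0.142), for which r was −0.26 with mice centred within groups alone (permutation p = 0.145, adjusted 0.516). Sulf2 had an unadjusted permutation p under 0.05 also with stellate cell markers (r = 0.41, permutation p = 0.0474, adjusted 0.355; r = 0.14 without the 2 farthest of 32 mice) and with platelet markers (r = −0.36, permutation p = 0.0441, adjusted 0.355).

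Ppbp went with markers of sinusoidal endothelium, the lining cells of the liver capillaries, without passing after adjustment (r = 0.31, permutation p = 0.0475, adjusted 0.355; rho = 0.37, permutation p = 0.0382, adjusted 0.416; 32 mice). Centred within group and series r was 0.44 (permutation p = 0.00474, adjusted 0.103; rho = 0.56, permutation p = 0.00251, adjusted 0.0602), and within the series it was 0.65 in G262 and 0.29 in G263. This list was, like Ppbp, lower in HF/HF mice of 12 weeks, with 0 of 12 genes higher and list means of 6.31 to 6.54 in HF/HF mice against 6.50 to 6.76 in LF/HF mice. Of its genes Lyve1, a hyaluronan receptor, met the criterion as lower at 12 weeks (1.47% of all genes did). At 28 weeks 3 of 12 genes were higher, the list means were 6.01 to 6.40 in HF/HF mice against 5.94 to 6.64 in LF/HF mice, and 2 genes met the criterion as lower (1.19% of all genes did), Clec4g, a lectin, and Fcgr2b, an Fc receptor. Markers of Kupffer cells, the macrophages of the liver, had 6 of 13 genes higher in HF/HF mice at 12 weeks and 1 of 13 at 28 weeks. At 12 weeks 1 gene of this list, Cd163, met the criterion as lower (1.47% of all genes did). At 28 weeks the list means were 5.27 to 6.09 in HF/HF mice against 5.24 to 6.36 in LF/HF mice. At that age 3 genes met the criterion as lower (1.19% of all genes did), Vsig4, Folr2 and again Cd163, which is 1 of the 18 genes above. The relation of the Kupffer cell list to Ppbp had r = 0.24 (permutation p = 0.161, adjusted 0.516; 32 mice). The part of these cells in the Ppbp difference was not tested further.

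**Figure D5:**
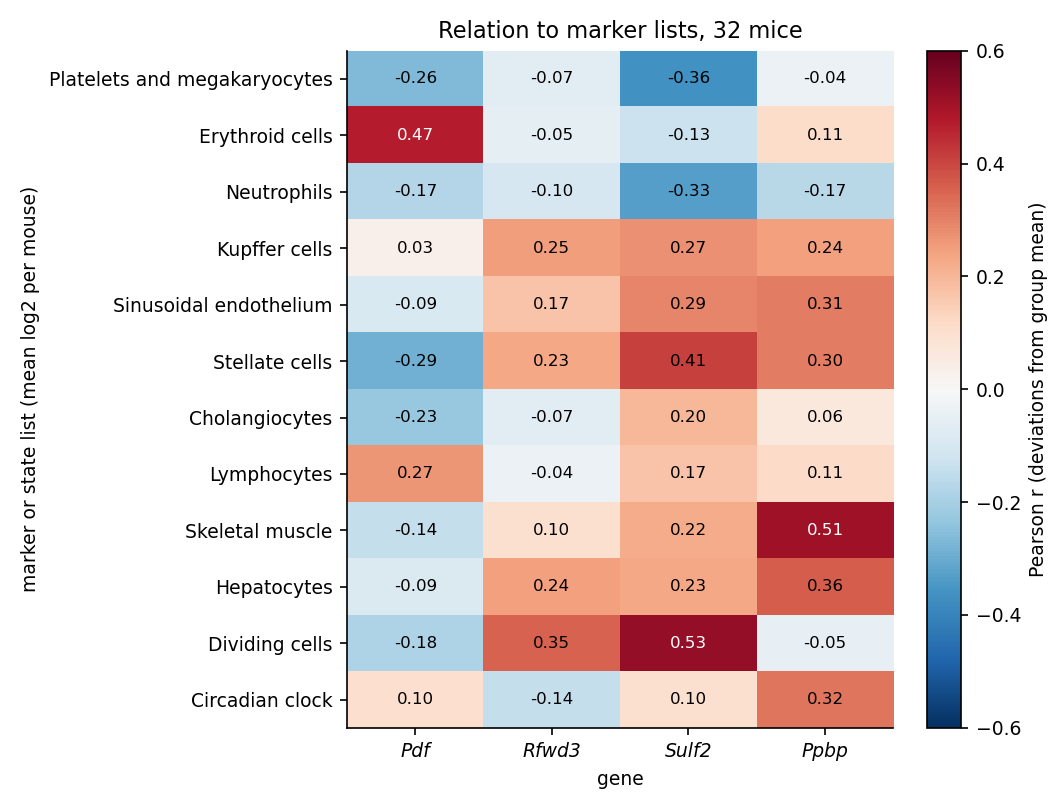
Pearson r (colour and printed value) between the deviation of each gene (x axis) and of each marker or state list (y axis) from the group mean, over 32 mice. The strongest values are 0.53 for Sulf2 with dividing cells, 0.51 for Ppbp with skeletal muscle and 0.47 for Pdf with erythroid cells, and none passed after adjustment over 48 relations.

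The genes whose deviations within groups were most like those of each gene were picked as the highest r over 32 mice among all genes, and they are given as a description. For Pdf they were Apip, an enzyme of methionine salvage (r = 0.70), Mrps11, a subunit of the mitochondrial ribosome (0.70), and Armc1 (0.68). For Rfwd3 they were Cox6a1, a subunit of cytochrome c oxidase (0.70), Tmem176a (0.66) and Kcnd2, a potassium channel (0.63). For Sulf2 they were Dop1b (0.77), Ntrk2, the receptor of brain-derived neurotrophic factor (0.74), and Gstk1, a glutathione transferase (0.72), all at 0.66 or more without the 2 farthest mice. For Ppbp they were Ybx3, a cold-shock protein (0.70), Aldoa, the muscle form of aldolase (0.67), and Capn3, the muscle calpain (0.66), which were at 0.45, 0.44 and 0.52 without the 2 farthest mice. None of these 12 genes is among the 18 that met the criterion at both ages in 1 direction. Those 18 are 0.0853% of all genes, so that nothing is read from this.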

How the data were processed

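Liver RNA of 32 mice was measured on Affymetrix Mouse Gene 1.1 ST arrays. The authors normalized the signals by robust multichip average in the MADMAX pipeline (versions and genome build not given in the sources used here) and deposited linear intensities of 21115 probe sets, 1 for each Entrez gene. Groups and replicate numbers came from the sample labels. A further deposited table holds the same values (largest log2 difference 7.15e-10) under array names, which gave series and group but no replicate number. Its columns of fold changes, p-values and q-values of the authors' own comparisons were not used.

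Genes were named through RefSeq by Entrez ID (20932 probe sets matched, 183 kept the name in the file), and the probe set of higher mean level was kept where a symbol had more than 1, which left 21113 genes. The log2 of each intensity was fitted in limma 3.58.1 (R 4.3.3) with 1 mean per group over all arrays, eBayes with an intensity trend and Benjamini-Hochberg adjustment over all genes. The study used a paired moderated test, and since the pairs are not given an unpaired fit was made. Litters are not given either, so p-values may be too small. Relations within groups were tested with 100000 permutations of mice within groups, two-sided, in families of 6 and 48. The fit was tested on simulated data with known changes. The number of arrays limits the precision.

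The 4 genes and the 18 gene lists were chosen with earlier results of these data known. Named genes were the 4 genes, their 2 nearest measured genes on each side, the 3 genes of highest r per gene, the leading genes past the criterion at both ages, and from the pathway lists those past a threshold, with a few others (Mtfmt, Rpa2, Sdc1, Plxna2, Cchcr1, Gstm1 and genes of the dividing-cell, platelet and sinusoidal lists) chosen after their values were seen. Some genes that this rule names are not reported here. Alternatives were eBayes without the trend, arrays of 1 age only, the replicate number as a block, a filter on level, cyclic loess, a pseudocount of 8, array weights, every probe set, each series alone or as a block, each mouse left out and mice with muscle markers left out. Leaving out the 3 mice with the most muscle markers or the 2 with the most dividing-cell markers, the test between series and the centring within series were added after seeing the data.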

Additional observations from a re-analysis of the deposited data

Results flagged for a closer look

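Mice apart from their group were looked for in the 4 genes and the platelet, erythroid, skeletal muscle and dividing-cell lists. The other lists were not looked at in this way, so the cases given here are not a full count. In 5 cases a mouse stood far from the rest of its group in a list. Its gap to the nearest mouse took up most of the range of the group. Skeletal muscle markers had a mean log2 intensity of 4.34 in replicate 3 of HF/HF at 12 weeks (2.41 to 2.89 in the others), 8.91 in replicate 1 of LF/HF at 12 weeks (2.40 to 2.77 in the others) and 6.34 in replicate 8 of LF/HF at 28 weeks (2.47 to 2.73 in the others). Dividing-cell markers were at 4.02 in replicate 3 of HF/HF at 12 weeks (2.46 to 2.77 in the others) and at 3.25 in replicate 3 of HF/HF at 28 weeks (2.47 to 2.72 in the others). Pdf, Rfwd3, Sulf2 and Ppbp themselves held no such mouse in any group. Chance alone flags about 1 in 20 groups, and 32 combinations of a gene or list with a group were looked at.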

How the results depend on the processing

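The direction of the diet difference held for the 4 genes at both ages under every alternative, except for Pdf (0.00756) and Rfwd3 (−0.0885) at 12 weeks in series G263 alone. In series G262 alone these were −0.60 and 1.52. The cause was not tested. The diet differences chose the 4 genes, so that nothing is read from the direction being kept. Several alternatives change the error and not the difference. Pdf at 12 weeks, for example, was −0.328 without the trend, with the replicate block and with every probe set. Without each mouse in turn, the differences at 12 and 28 weeks ranged over −0.41 to −0.27 and −0.45 to −0.38 for Pdf, 0.59 to 0.97 and 0.59 to 0.79 for Rfwd3, 0.33 to 0.53 and 0.28 to 0.42 for Sulf2, and −0.47 to −0.23 and −0.39 to −0.30 for Ppbp. Sulf2 at 28 weeks fell below the criterion without replicate 3 (0.29) or 5 (0.31) of HF/HF or replicate 1 (0.30) or 7 (0.28) of LF/HF. With 8 added to the intensity Ppbp fell to −0.17 and −0.15, below the fold limit, and it was left out by the filter on level. With the arrays of 12 weeks alone Ppbp did not meet the criterion at that age. None of the 4 genes passed the age comparison under any alternative.

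Counts moved more. Among genes at or above the median level, from fewer genes tested, 171 were higher and 201 lower in HF/HF mice at 12 weeks, and 123 and 133 at 28 weeks. With 8 added these counts were 128 and 135 at 12 weeks, 58 and 68 at 28 weeks, and 9 at both ages. At 28 weeks 308 genes were higher without the 2 mice of most muscle markers and 340 without the 3, and in series G262 alone 495 were higher and 627 lower, against 405 and 391 in G263 alone. At both ages the count was 50 in series G262 alone and 8 without the 2 mice with dividing-cell markers. The age count was 31 in series G262 alone and 21 in G263 alone. Without each mouse in turn, higher and lower genes ranged over 273 to 417 and 292 to 405 at 12 weeks and over 175 to 311 and 223 to 356 at 28 weeks, genes at both ages over 9 to 27 and the age count over 250 to 497. The mice behind counts over 1.5 times away were replicate 6 of LF/HF at 28 weeks (311), replicate 3 of HF/HF (9 at both ages) and replicate 2 of LF/HF (11) at 28 weeks, and replicate 7 of HF/HF at 12 weeks (250). With cyclic loess 1 of the 48 relations with lists passed by r, that of Sulf2 with dividing cells, while its rho did not pass (adjusted permutation p = 0.114).

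Over 44 pairs of mice with the same replicate number r of their deviations was −0.298 to 0.443, with a median of 0.000565, and 9 were over 0.1. The highest r was that of replicate 3 of HF/HF at 12 weeks with replicate 3 of HF/HF at 28 weeks, the mice that led in dividing-cell markers. Each array is of a different mouse, and these values cannot show whether equal numbers mark the pairs or litters of the study. With the replicate number as a block the age count was 163 in place of 379, while the diet differences were the same with and without it.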
